A study of Mus musculus with 12 samples.

Results

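Iron and oxoglutarate dependent dioxygenases are enzymes that hold an iron(II) ion in the active site and use oxygen and 2-oxoglutarate to hydroxylate a substrate. When the hydroxylated group is a methyl on a nitrogen of a histone lysine or of a base, it falls off as formaldehyde. The same chemistry thus gives demethylases. The family also holds collagen prolyl and lysyl hydroxylases, the asparaginyl hydroxylase that acts on hypoxia-inducible factor, and enzymes of lipid and carnitine metabolism. Transcripts of 43 listed family members were looked up in liver RNAseq counts of 12 mice. Of these, 42 had a row among the 55414 genes counted, found by Ensembl identifier and symbol, and Tmlhe was not analysed here. They were read as 16 histone demethylases, 11 nucleic acid demethylases and 15 hydroxylases. Alkbh4, Alkbh7 and Alkbh8 were placed with the nucleic acid demethylases by family. Alkbh4 and Alkbh7 are known to act on proteins, and Alkbh8 is known for modifying transfer RNA, not for removing methyl groups.

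The 4 groups of 3 mice were female, of the C57Bl/6J strain, and were used at 8 to 12 weeks of age. Each mouse received an i.p. injection of NaCl or of 300 mg/kg FeSO4 (iron sulfate) and, 6 h later, an injection of PBS or of 10 mg/kg DEX (dexamethasone, a synthetic glucocorticoid). Livers were collected 2 h after that second injection, so every mouse had been through 8 h from the first injection and through 2 injections. The groups are called NaCl/PBS, NaCl/DEX, FeSO4/PBS and FeSO4/DEX. The mRNA came from whole liver, in which fewer cells of a type and less RNA per cell cannot be told apart.

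Libraries held 16335651 to 23827340 counts in genes, and 13857 genes passed the low-count filter and were tested. Counts per mouse below are normalized counts, scaled by TMM factors to the mean library, and LFC is the log2 fold change. A gene was called when its Benjamini-Hochberg adjusted p from edgeR's quasi-likelihood test, over all genes tested, was 0.05 or less. FeSO4/PBS mouse 1 stood apart from the other FeSO4/PBS mice, with a chi-square per gene of 89.5 and 71.4 against mice 2 and 3, where mice 2 and 3 gave 24.0 between them. The TMM factors ran from 1.14 to 1.16 in NaCl/PBS and from 0.90 to 0.95 in FeSO4/PBS, and scaling by library size alone lowered the median LFC of all genes after FeSO4 from -0.02 to -0.34. The 7 hepatocyte marker genes summed to 2042512 to 2417193 normalized counts in NaCl/PBS and 2616986 to 3016753 in FeSO4/PBS, and 4 of them rose after FeSO4 while 0 fell. The 7 macrophage markers summed to 7608 to 8858 in NaCl/PBS and 3889 to 4581 in FeSO4/PBS, and all 7 fell after FeSO4. The 7 neutrophil markers summed to 49.1 to 180 in NaCl/PBS and 639 to 812 in FeSO4/PBS, and the 4 that could be tested all rose. Stellate cell and fibroblast markers summed to 4527 to 4727 in NaCl/PBS and 4638 to 6424 in FeSO4/PBS, while 2 of the 9 rose and 2 fell. Cholangiocyte markers summed to 534 to 686 and 1068 to 1377. Of the 5 of them tested, 2 rose and 0 fell, with LFCs from -0.85 to 3.26. Endothelial cell markers summed to 5219 to 6138 and 5162 to 6568, while 2 of the 7 rose and 3 fell. No gene of the 8 marker lists was at 0 in all libraries, and the part of cell numbers in the results below was not tested.

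Promoter sequences are shown for 4 members that led the comparisons below and whose stretch from 250 to 51 bases before the RefSeq start overlaps no annotated exon. The RefSeq sequences come from build GRCm38.p6, and each matched GRCm39 exactly once, which gave the positions. Jmjd1c and P4ha1, which moved in opposite directions after FeSO4, both hold the core GCGTG of hypoxia response elements, on either strand, 2 times in this stretch, and the capitals mark it. Alkbh2 and Phf8 hold none of the 4 motifs searched in it.
Jmjd1c, chr10:66962617-66962816, plus strand: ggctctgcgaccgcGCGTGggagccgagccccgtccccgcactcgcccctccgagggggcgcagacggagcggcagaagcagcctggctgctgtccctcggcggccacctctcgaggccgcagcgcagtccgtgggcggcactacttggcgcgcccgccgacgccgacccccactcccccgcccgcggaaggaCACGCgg
P4ha1, chr10:59158868-59159067, plus strand: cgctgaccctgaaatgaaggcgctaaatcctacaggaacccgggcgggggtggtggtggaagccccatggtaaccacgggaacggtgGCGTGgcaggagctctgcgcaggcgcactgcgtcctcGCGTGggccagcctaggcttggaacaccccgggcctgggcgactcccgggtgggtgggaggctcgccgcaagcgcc
Alkbh2, chr5:114266330-114266529, minus strand: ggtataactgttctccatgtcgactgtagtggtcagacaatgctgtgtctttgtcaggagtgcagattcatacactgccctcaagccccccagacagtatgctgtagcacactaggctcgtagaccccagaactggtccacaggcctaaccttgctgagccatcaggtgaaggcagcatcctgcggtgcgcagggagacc
Phf8, chrX:150303418-150303617, plus strand: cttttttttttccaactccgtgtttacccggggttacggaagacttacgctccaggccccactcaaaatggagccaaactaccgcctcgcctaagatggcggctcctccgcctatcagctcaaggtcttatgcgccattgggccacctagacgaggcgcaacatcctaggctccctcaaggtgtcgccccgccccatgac

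The Jmjd1c start in RefSeq lies 30963 bases inside the 5′ end of the gene in GENCODE, so other starts of that gene are not covered. Over the whole 300 bases of each promoter, the 4 motifs were searched on both strands in 35 member promoters and in 27025 promoters in all, taking 1 start per gene. GCGTG was in 18 of the 35 member promoters (51.4%) and in 32.5% of all promoters, and the other hypoxia response element core, ACGTG, was in 13 (37.1%) and 19.7%. The antioxidant response element core TGACNNNGC was in 8 (22.9%) and 12.5%, and the AP-1 element TGACTCA was in 2 (5.71%), Kdm4a and Kdm5c, and 5.17%. The last pair share their first letters and can fall on the same bases, and the hypoxia cores share letters with each other. The member promoters also held more CpG dinucleotides, with a median of 11 in the 200-base stretch against 4 over all promoters, and both hypoxia cores contain a CpG. Alkbh2 held GCGTG in its 300 bases outside the stretch printed above, and P4ha1 held TGACNNNGC 26 bases before the start. Nearer the start, Phf8 held 2 hypoxia cores and P4ha1 held 1, shown here with 10 bases on either side and the core in capitals.
Phf8, 48 bases before the start, GCGTG on the opposite strand: cccatgacgtCACGCaagagccgcc
Phf8, 27 bases before the start, ACGTG: cgccggcttgACGTGccgggctcca
P4ha1, 16 bases before the start, ACGTG on the opposite strand: tgacagagcgCACGTagcgagggct
A match is only a run of letters, and binding was not measured.

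Levels of different genes were compared in NaCl/PBS liver as RPKM, the normalized counts per kilobase of merged exons, scaled for library size. Phyh, the peroxisomal phytanoyl-CoA hydroxylase, stood at 189 ± 3.81 RPKM (SD, n = 3), and Bbox1, which makes carnitine from gamma-butyrobetaine, at 32.0 ± 1.10. Alkbh5, an eraser of N6-methyladenosine (m6A) in mRNA, was the next at 12.5 ± 0.0784. These 3 kept their order when the length of the canonical transcript was used instead. Kdm5c, a demethylase of trimethylated lysine 4 of histone H3, was the highest histone demethylase by merged exons, at 4.80 ± 0.163, but was not separated from Kdm4a at 4.72 ± 0.627. By canonical transcript, Kdm2a at 6.50 RPKM stood above Kdm5c at 6.36, so that order depended on the length used. The histone demethylases spanned a narrow band, down to 0.648 ± 0.158 for Kdm2b. At the bottom of the family stood Plod2, a collagen lysyl hydroxylase, at 0.0886 ± 0.0153, P4htm at 0.0321 ± 0.0217 and Tet1 at 0.0123 ± 0.00407. P4htm and Tet1 did not pass the low-count filter, so 40 members were tested. Tet1 had 7, 4 and 3 counts in NaCl/PBS and 1, 1 and 0 in FeSO4/PBS, and P4htm had 1, 5 and 5 against 4, 5 and 6.

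**Figure D1:**
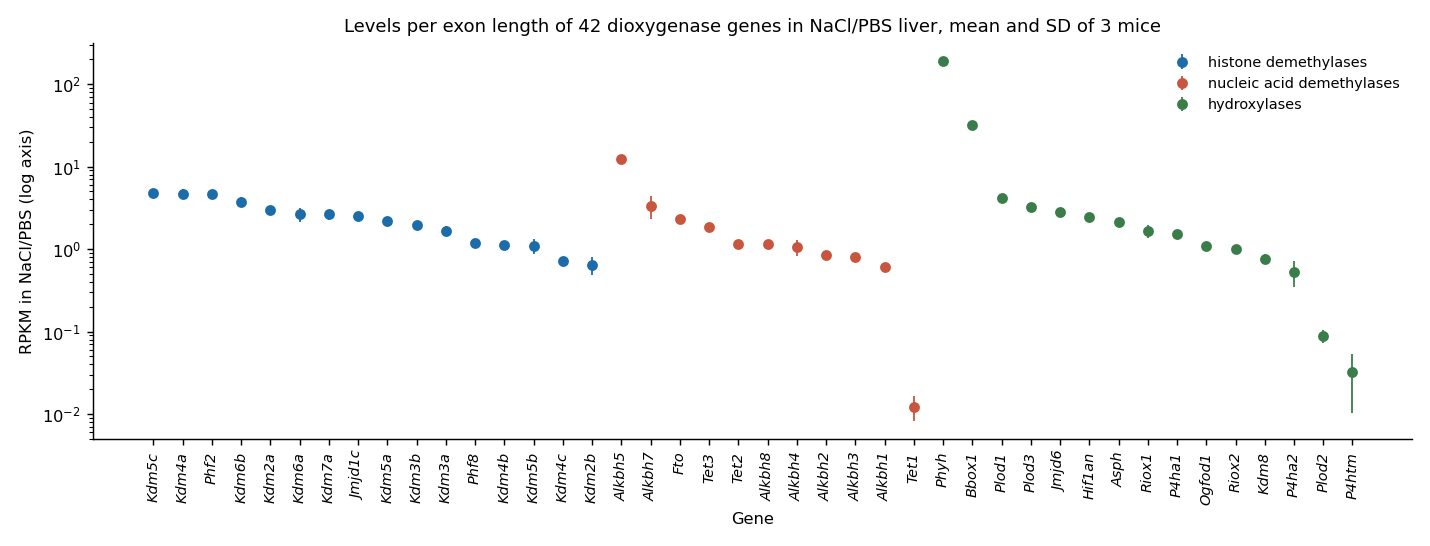
RPKM (normalized counts per kilobase of merged exons, scaled for library size, log axis) of the 42 dioxygenase genes in NaCl/PBS liver, ordered within each class, with points for the mean and bars for the SD of 3 mice. Phyh at 189 and Bbox1 at 32.0 stand above Alkbh5 at 12.5, and the others fall from Kdm5c at 4.80 to Tet1 at 0.0123.

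FeSO4/PBS was first compared with NaCl/PBS, which asks how these transcripts stood 8 h after the iron load without DEX. Of the 40 members tested, 12 rose and 11 fell, 30% and 27.5% of them, where 27.2% of all genes tested rose and 27.3% fell. The members were thus called about as often as genes in general, in both directions. Beyond an LFC of 1 in size, 4 rose (Jmjd1c, Alkbh1, Alkbh2, Riox1) and 2 fell (P4ha1, Tet3), against 12.5% of all genes rising and 14.7% falling that far. Groups did not overlap for 15 members with higher values after FeSO4 and for 11 with lower values, where 29.0% and 31.0% of all genes did so. The median LFC was 0.08 over the members and -0.02 over all genes, and the median size of the LFC was 0.46 and 0.58. Leaving out FeSO4/PBS mouse 1, 14 members rose and 11 fell, and leaving out NaCl/PBS mouse 1, 7 fell. With library size alone as the scaling, 6 members rose and 17 fell, and the share of higher genes among all called genes went from 49.9% to 28.2%.

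The 3 classes differed in their counts. Among 10 nucleic acid demethylases tested, 6 rose (60%) and 2 fell (20%), where 27.2% of all genes rose and 27.3% fell. The median LFC of this class was 0.40, and 0.26 without FeSO4/PBS mouse 3. Among 16 histone demethylases 4 rose (25%) and 5 fell (31.2%), with a median of 0.03. Among 14 hydroxylases 2 rose (14.3%) and 4 fell (28.6%), with a median of -0.01. Relative to the mean of the control group, the class median of the nucleic acid demethylases was 0.19, 0.35 and 0.60 in the 3 FeSO4/PBS mice. That of the histone demethylases was -0.11, 0.08 and 0.11, and that of the hydroxylases 0.11, -0.06 and -0.08. The class of nucleic acid demethylases was thus above the others in each of the 3 mice, but the difference between classes was given no test. With library size alone as the scaling, the medians were 0.09, -0.29 and -0.33, in the same order of classes, and the sign of the histone demethylase median turned. Under that scaling Fto, Alkbh3, Alkbh5 and Alkbh8, of the class of nucleic acid demethylases, no longer passed the test. The rises of Kdm5a and Jmjd6, in the other classes, were lost too.

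**Figure D2:**
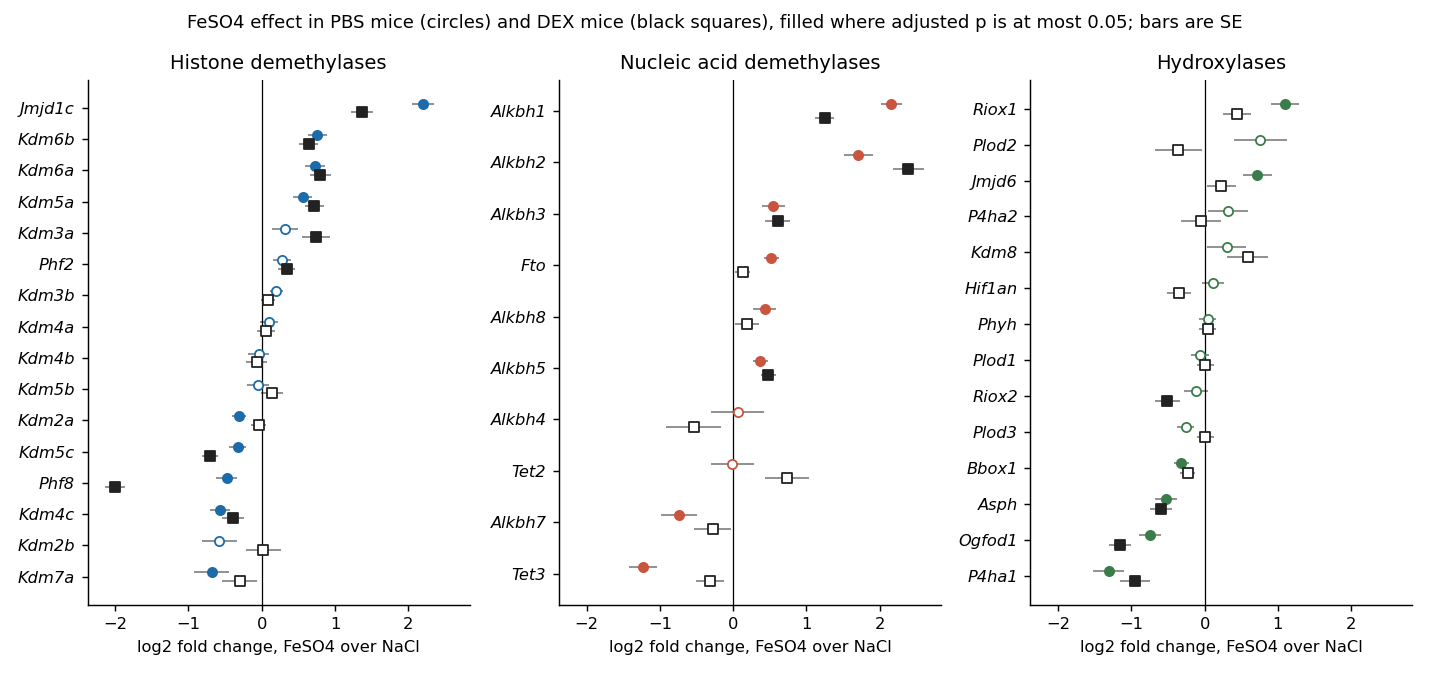
LFC (log2, x axis) of FeSO4 over NaCl for each of the 40 dioxygenase genes tested, in PBS mice (coloured circles) and in DEX mice (black squares), with bars for the SE and filled symbols where the edgeR adjusted p was 0.05 or less. Jmjd1c, Alkbh1 and Alkbh2 lie beyond 1 to the right in both comparisons, and Phf8 moves from -0.48 to -2.0.

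The histone demethylase gene that rose most was Jmjd1c (ENSMUSG00000037876, GRCm39 chr10:66931904-67092109), a relative of the lysine 9 demethylases Kdm3a and Kdm3b. It stood at 930, 888 and 905 normalized counts in NaCl/PBS and at 4019, 4823 and 3635 in FeSO4/PBS. The lowest FeSO4/PBS mouse was far above the highest NaCl/PBS mouse, and the group means were 908 ± 21.0 and 4159 ± 606 (SD, n = 3). The LFC was 2.20 (SE 0.15, edgeR adjusted p = 9.3e-08), the largest among the 40 members.

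Both Kdm6 genes, which encode lysine 27 demethylases, rose as well. Kdm6b had an LFC of 0.76 (edgeR adjusted p = 3.0e-04) and Kdm6a, which is X-linked, of 0.73 (6.7e-04). Kdm5a, one of the lysine 4 demethylases, rose by 0.56 (0.0023), but not past the test with library size alone (0.24, adjusted p = 0.14). Another lysine 4 demethylase, Kdm5c (ENSMUSG00000025332, GRCm39 chrX:151016016-151062093), went the other way, from 1380, 1470 and 1397 normalized counts to 1124, 1037 and 1208. These groups did not overlap, but the LFC was only -0.33 (SE 0.11, edgeR adjusted p = 0.017), and the call was lost without NaCl/PBS mouse 2 or FeSO4/PBS mouse 2 (highest adjusted p 0.069). Kdm5b, the third of that subfamily tested, had an LFC of -0.05 (adjusted p = 0.78).

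The other histone demethylases that fell were Kdm7a (LFC -0.68, edgeR adjusted p = 0.027), Kdm4c (-0.57, 0.0044), Phf8 (-0.48, 0.0096) and Kdm2a (-0.31, 0.020). Kdm7a and Phf8 belong to 1 subfamily, whose members read lysine 4 methylation with a PHD finger and demethylate lysine 9, 20 or 27. The third member of it, Phf2, had an LFC of 0.28 and did not pass the test (adjusted p = 0.067). Kdm7a rested in part on FeSO4/PBS mouse 1, at 206 normalized counts where mice 2 and 3 had 498 and 443, and without that mouse its LFC was -0.37 (adjusted p = 0.046). Its call was lost without NaCl/PBS mouse 1 or 3 (highest adjusted p 0.098), and that of Kdm2a without NaCl/PBS mouse 1 or FeSO4/PBS mouse 2 or 3 (0.083). The uncalled histone demethylases ran from -0.58 for Kdm2b to 0.32 for Kdm3a.

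Among the nucleic acid demethylases, Alkbh1 and Alkbh2 rose most. Alkbh1 (ENSMUSG00000079036, GRCm39 chr12:87470130-87490787), known for demethylating 1-methyladenosine in transfer RNA, stood at 114, 121 and 145 normalized counts in NaCl/PBS and at 536, 586 and 571 in FeSO4/PBS. Every FeSO4/PBS mouse was more than 3 times the highest NaCl/PBS mouse. The LFC was 2.16 (SE 0.14, edgeR adjusted p = 5.4e-08), close to that of Jmjd1c.

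Alkbh2 (ENSMUSG00000044339, GRCm39 chr5:114260102-114266315) repairs alkylated bases in double-stranded DNA. It had 80.6, 85.1 and 76.2 normalized counts in NaCl/PBS and 228, 275 and 288 in FeSO4/PBS, with no overlap. The LFC was 1.71 (SE 0.20, edgeR adjusted p = 9.4e-06). The value of Alkbh2 is uncertain, since 46.0% of its exonic bases are shared with Usp30 on the opposite strand. The strand setting of the counting is not given in the sources used here.

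The smaller rises in the class were those of Alkbh3 (LFC 0.55, edgeR adjusted p = 0.012), a repair enzyme for single-stranded DNA and RNA, Fto (0.52, 8.0e-04), Alkbh8 (0.43, 0.030) and Alkbh5 (0.37, 0.0073). Fto and Alkbh5 are the m6A erasers, so both rose. Alkbh5 (ENSMUSG00000042650, GRCm39 chr11:60427207-60449346) went from 1549, 1568 and 1557 normalized counts to 1753, 2041 and 2260, without overlap and with more spread among the FeSO4/PBS mice. With library size alone, neither m6A eraser passed the test, nor did Alkbh3 or Alkbh8. Without FeSO4/PBS mouse 3 or any 1 of the NaCl/PBS mice the Alkbh8 call was lost (highest adjusted p 0.18).

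The Tet enzymes oxidize 5-methylcytosine in DNA. Tet3 (ENSMUSG00000034832, GRCm39 chr6:83339355-83436066), the highest Tet gene in NaCl/PBS liver at 1.84 ± 0.226 RPKM, fell from 622, 530 and 678 normalized counts to 179, 326 and 274. The highest FeSO4/PBS mouse was below the lowest NaCl/PBS mouse, and the LFC was -1.23 (SE 0.19, edgeR adjusted p = 1.1e-04). Without FeSO4/PBS mouse 1, the lowest, it was -1.02. Tet2 stood at 178, 562 and 455 normalized counts in FeSO4/PBS, around the NaCl/PBS mice at 437, 367 and 395, with an LFC of -0.01 (adjusted p = 0.99). Mouse 1 was the low one in the FeSO4/PBS group. Alkbh7, a mitochondrial family member, had an LFC of -0.74 (edgeR adjusted p = 0.020), with overlapping groups, 23.8% of its exonic bases shared with Pspn on the other strand, and its call lost without NaCl/PBS mouse 1 or FeSO4/PBS mouse 3 (highest adjusted p 0.14). Alkbh4 had an LFC of 0.06 with an SE of 0.36.

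Of the protein hydroxylases of nucleus and ribosome, Riox1 (ENSMUSG00000046791, GRCm39 chr12:83997382-83999725), which hydroxylates a histidine of a ribosomal protein, rose. It stood at 61.1, 86.0 and 83.0 normalized counts in NaCl/PBS and at 169, 178 and 144 in FeSO4/PBS. The groups were well apart, and the LFC was 1.10 (SE 0.19, edgeR adjusted p = 2.4e-04). For this gene 55.7% of the exonic bases are shared with Gm26571 on the opposite strand, so its value is uncertain while the strand setting is not known. Its paralogue Riox2 had an LFC of -0.12 (adjusted p = 0.54). Jmjd6, a lysyl hydroxylase of splicing factors, rose by 0.72 (edgeR adjusted p = 0.0069), and by 0.42 (0.029) without FeSO4/PBS mouse 1, which had 643 normalized counts where mice 2 and 3 had 359 and 399. Its LFC with library size alone was 0.39 and the call was lost (adjusted p = 0.089). Ogfod1, which hydroxylates a proline of the small ribosomal subunit, fell (LFC -0.75, edgeR adjusted p = 8.8e-04). Kdm8 had an LFC of 0.30 (adjusted p = 0.38). Riox2 and Jmjd6 share 21.8% and 15.8% of their exonic bases with genes on the other strand. The share is 12.8% in Asph, 9.1% in Tet3 and 7.8% in Plod2, so the same limit holds for these to a smaller extent.

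P4ha1 (ENSMUSG00000019916, GRCm39 chr10:59159092-59209126) encodes a catalytic subunit of collagen prolyl 4-hydroxylase, the enzyme that stabilises the collagen triple helix. Its normalized counts were 175, 184 and 223 in NaCl/PBS against 88.7, 81.4 and 63.8 in FeSO4/PBS. The 2 groups were thus far apart, and the LFC was -1.31 (SE 0.21, edgeR adjusted p = 1.5e-04), the most negative among the 40 members. The paralogue P4ha2 had an LFC of 0.32 (adjusted p = 0.33), at 69.0, 129 and 77.9 normalized counts against 119, 109 and 116. The lysyl hydroxylases of collagen did not pass the test, with LFCs of -0.06 for Plod1, 0.76 for Plod2 and -0.26 for Plod3 (adjusted p = 0.72, 0.085 and 0.085).

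Asph, the aspartyl hydroxylase of EGF-like domains, fell by 0.53 (edgeR adjusted p = 0.0092), and by 0.35 (0.028) without FeSO4/PBS mouse 1. Bbox1 fell by 0.32 (0.016), a call lost without NaCl/PBS mouse 1 (adjusted p = 0.051). Hif1an, the asparaginyl hydroxylase of hypoxia-inducible factor, had an LFC of 0.12 (adjusted p = 0.55). The highest transcript of the family, Phyh (ENSMUSG00000026664, GRCm39 chr2:4923653-4950446), stood at 22203, 21922 and 22800 normalized counts in NaCl/PBS and at 23023, 23741 and 21927 in FeSO4/PBS, with an LFC of 0.04 (SE 0.11, adjusted p = 0.79). Its groups overlapped.

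**Figure D3:**
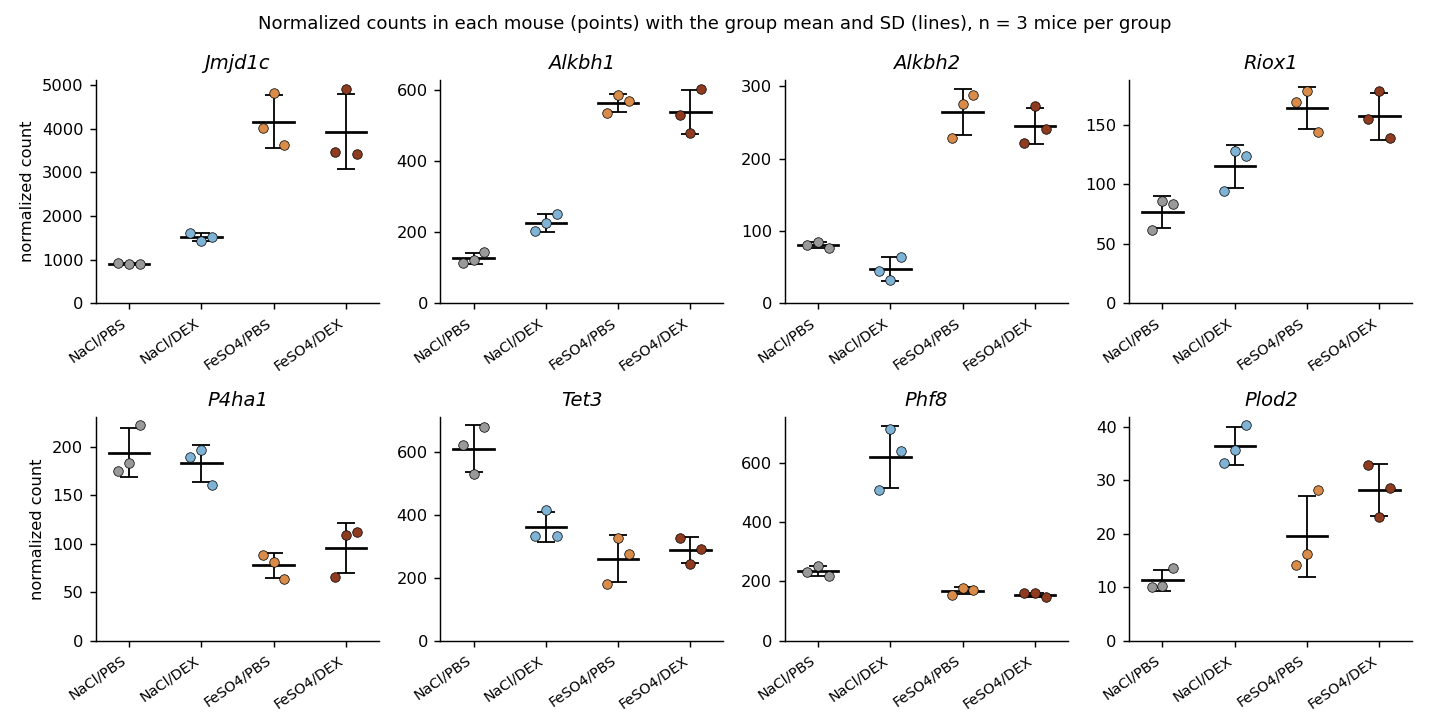
Normalized counts (y axes from 0) of 8 dioxygenase genes in each mouse of the 4 groups, with lines for the mean and bars for the SD of 3 mice. Jmjd1c, Alkbh1, Alkbh2 and Riox1 are highest in the 2 FeSO4 groups and P4ha1 is lowest there, Tet3 is highest in NaCl/PBS, and Phf8 stands at 508 to 714 only in the NaCl/DEX mice.

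The same iron comparison was made in mice that received DEX, FeSO4/DEX against NaCl/DEX, which shares no mouse with the first. Here 10 members rose and 7 fell, where 22.4% of all genes rose and 20.9% fell. Among them 6 histone demethylases rose and 3 fell, 4 nucleic acid demethylases rose and 0 fell, and 0 hydroxylases rose and 4 fell. Of the members, 14 were called in both iron comparisons, 8 higher and 6 lower in both and 0 in opposite directions. They were 60.9% of the members called in the first and 82.4% of those called in the second, and for all genes these shares were 63.8% and 80.3%. With library size alone, 8 members rose and 9 fell, and the share of higher genes among all called went from 51.7% to 34.2%. The LFC had the same sign in 31 of 40 members.

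Alkbh2 showed the largest rise under DEX, from 44.0, 32.0 and 64.4 normalized counts in the NaCl/DEX mice to 222, 272 and 241 in the FeSO4/DEX mice. These values lay far apart, and the LFC was 2.39 (SE 0.21, edgeR adjusted p = 1.4e-06). Jmjd1c went from 1604, 1417 and 1525 to 3458, 4918 and 3408 normalized counts (LFC 1.37, adjusted p = 6.5e-06), and Alkbh1 from 203, 225 and 252 to 531, 481 and 605 (1.25, 5.9e-06). In both genes the FeSO4/DEX mice stood at about the level of the FeSO4/PBS mice, while the NaCl/DEX mice stood above the NaCl/PBS mice.

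Phf8 (ENSMUSG00000041229, GRCm39 chrX:150303621-150416855), an X-linked demethylase of lysine 9 and lysine 20, had 508, 714 and 642 normalized counts in the NaCl/DEX mice and 159, 160 and 147 in the FeSO4/DEX mice. Its LFC of -2.0 (SE 0.14, edgeR adjusted p = 1.8e-07) was the most negative of the 40. Ogfod1 (-1.15, 4.9e-05) and P4ha1 (-0.95, 0.0023) fell as they had without DEX, and P4ha1 stood at 190, 197 and 161 normalized counts in NaCl/DEX and at 65.7, 109 and 112 in FeSO4/DEX. The further falls were those of Kdm5c (-0.71, 1.3e-04), Asph (-0.59, 0.0062), Riox2 (-0.51, 0.023) and Kdm4c (-0.39, 0.044).

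Kdm6a (0.80, 5.1e-04), Kdm5a (0.72, 5.3e-04), Kdm6b (0.64, 0.0016), Alkbh3 (0.61, 0.0083) and Alkbh5 (0.48, 0.0020) rose after FeSO4 in the DEX mice, as they had in the PBS mice. Kdm3a, a lysine 9 demethylase, passed the test here (0.74, 0.0053) and had an LFC of 0.32 without DEX, and Phf2 passed it narrowly (0.34, 0.041). Riox1, at 94.5, 128 and 124 normalized counts in NaCl/DEX and 155, 178 and 139 in FeSO4/DEX, had an LFC of 0.44 and did not pass (adjusted p = 0.069). Tet3, at 331, 415 and 333 against 326, 243 and 291, had an LFC of -0.32 (adjusted p = 0.19). Whether the effect of FeSO4 differed with DEX is the same question as the difference of the DEX responses, tested at the end. The call of Alkbh3 was lost without FeSO4/DEX mouse 2 (adjusted p = 0.066) and that of Riox2 without NaCl/DEX mouse 1 or FeSO4/DEX mouse 2 or 3 (highest adjusted p 0.084). Those of Kdm4c and Phf2 were lost in 7 and 8 of the 12 fits that left out 1 mouse (highest adjusted p 0.10 and 0.19), among them each of the NaCl/DEX mice and FeSO4/DEX mouse 1 or 2.

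NaCl/DEX was compared with NaCl/PBS for the response to 2 h of DEX without iron. It shares the NaCl/PBS mice with the first comparison. Here 4 members rose (Plod2, Phf8, Alkbh1, Jmjd1c) and 2 fell (Alkbh2, Tet3), 10% and 5% of the 40, where 6.50% of all genes rose and 7.15% fell. By class these were 2 histone demethylases and 1 hydroxylase that rose, and 1 nucleic acid demethylase that rose and 2 that fell. The count of members that fell was 4 without FeSO4/PBS mouse 1, which enters this comparison only through the shared estimate of the spread, 0 without NaCl/PBS mouse 1 or 3 or NaCl/DEX mouse 1, and 1 without NaCl/PBS mouse 2 or NaCl/DEX mouse 2 or 3. With library size alone 4 members rose and 3 fell, and the share of higher genes among all called went from 47.6% to 25.8%.

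Phf8 went from 233, 252 and 219 normalized counts to 508, 714 and 642, with no overlap (LFC 1.40, SE 0.14, edgeR adjusted p = 1.5e-05). The collagen lysyl hydroxylase gene Plod2 (ENSMUSG00000032374, GRCm39 chr9:92424119-92490494), whose product acts on the telopeptides where cross-links form, went from 10.1, 10.3 and 13.5 to 33.3, 35.7 and 40.3. Its LFC of 1.68 (SE 0.34, edgeR adjusted p = 0.0041) was the largest of the members in this comparison, on low counts. Alkbh1 rose by 0.84 (SE 0.14, 8.9e-04) and Jmjd1c by 0.74 (SE 0.15, 0.0038). In both genes the NaCl/DEX mice lay above all NaCl/PBS mice and below all FeSO4/PBS mice.

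Alkbh2 had 80.6, 85.1 and 76.2 normalized counts in NaCl/PBS and 44.0, 32.0 and 64.4 in NaCl/DEX, an LFC of -0.79 (SE 0.22, edgeR adjusted p = 0.028). Tet3 went from 622, 530 and 678 to 331, 415 and 333 (LFC -0.76, SE 0.19, 0.015). Neither gene overlapped between the groups, but both calls were fragile. That of Alkbh2 was lost without any 1 of the NaCl/PBS mice or NaCl/DEX mouse 1 or 2 (highest adjusted p 0.12) and that of Tet3 without NaCl/PBS mouse 1 or 3 or NaCl/DEX mouse 1 or 3 (0.074). Side by side, DEX and FeSO4 moved Alkbh2 in opposite directions (LFC -0.79 and 1.71), and likewise Phf8 (1.40 and -0.48). Jmjd1c (0.74 and 2.20) and Alkbh1 (0.84 and 2.16) rose with either, and Tet3 fell with either (-0.76 and -1.23). Both LFCs of a gene are taken against the same NaCl/PBS mice, so their agreement in sign is not independent. Riox1 had an LFC of 0.60 with DEX and did not pass the test (adjusted p = 0.053).

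In the highest genes of each class, DEX gave LFCs of 0.14 for Phyh, -0.14 for Alkbh5 and 0.31 for Kdm5c, none past the test (adjusted p = 0.44, 0.44 and 0.071). Phyh stood at 24576, 23512 and 25704 normalized counts in NaCl/DEX, Alkbh5 at 1376, 1471 and 1401, and Kdm5c at 1737, 1841 and 1695. The remaining uncalled members ran from -0.51 for Tet2 to 0.60 for Riox1.

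FeSO4/DEX was then compared with FeSO4/PBS, the response to DEX in mice that had received iron. By edgeR 0 members rose and 0 fell, as did 0 (0%) of all genes. At an unadjusted p under 0.05, 0 members were higher and 2 were lower, and DESeq2 called 0 members. LFCs ran from -0.44 for Alkbh4 to 0.56 for Plod2. For 1 member, Bbox1, all FeSO4/DEX mice lay above the FeSO4/PBS mice, and for 2, Kdm4a and Fto, they lay below, where 4.45% and 4.85% of all genes did so. Phf8 had 155, 178 and 171 normalized counts in FeSO4/PBS and 159, 160 and 147 in FeSO4/DEX (LFC -0.11, SE 0.14). Plod2 had 14.1, 16.3 and 28.1 against 32.9, 23.1 and 28.5, with overlap (LFC 0.56, SE 0.34, adjusted p = 0.80).

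**Figure D4:**
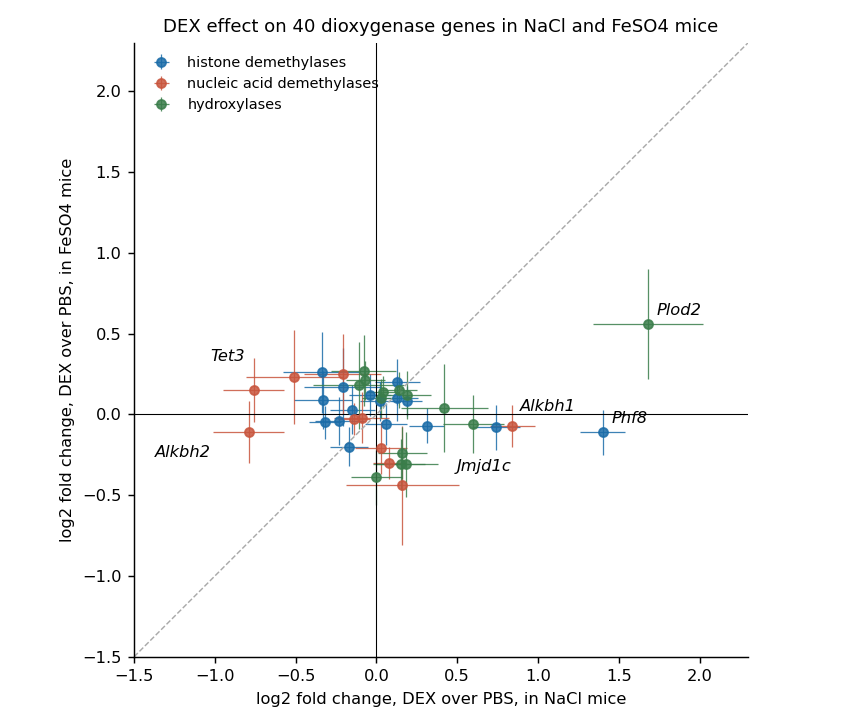
LFC (log2) of DEX over PBS in NaCl mice (x axis) and in FeSO4 mice (y axis) for the 40 dioxygenase genes tested, with bars for the SE and a dashed line of equal responses. The 6 named genes passed the test in NaCl mice, and Phf8 lies at 1.40 on the x axis and -0.11 on the y axis.

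The difference between the 2 DEX responses was tested directly, as the response in FeSO4 mice minus that in NaCl mice. It passed the test for 3 members, all with a negative difference, and for 0 with a positive one, where 3.20% and 2.99% of all genes passed. The difference was -1.52 for Phf8 (SE 0.20, edgeR adjusted p = 5.2e-04), -0.91 for Alkbh1 (SE 0.19, 0.011) and -0.82 for Jmjd1c (SE 0.21, 0.031). All 3 rose with DEX in NaCl mice, and in FeSO4 mice their LFCs were -0.11, -0.07 and -0.08. Phf8 and Alkbh1 passed in every fit that left out 1 mouse, and Jmjd1c failed in 8 of 12 (highest adjusted p 0.072). For Plod2 the difference was -1.12 with an SE of 0.48 (adjusted p = 0.20), for Tet3 0.91 with an SE of 0.27 (0.065) and for Alkbh2 0.68 with an SE of 0.29 (0.20), so for these a difference was not shown. Among all genes called, the share with a positive difference was 48.3%, and 63.7% with library size alone, and a positive difference can also be a fall with DEX that is smaller in FeSO4 mice.

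The genes around the family were read in the same way, from lists of related genes, against the 27.2% of all genes that rose and 27.3% that fell after FeSO4 without DEX. Of 15 further dioxygenases tested, 3 rose (20%) and 4 fell (26.7%), with the largest rise in Hspbap1 (LFC 2.58, edgeR adjusted p = 1.5e-06) and the largest fall in Phyhd1 (-1.81, 2.2e-05). The oxygen sensor Egln2, a prolyl hydroxylase of hypoxia-inducible factor, rose by 0.89 (1.1e-04). Of 13 target genes of that factor tested, 7 rose (53.8%) and 1 fell (7.69%) after FeSO4, where 27.2% and 27.3% of all genes did, with the largest rise in the glucose transporter gene Slc2a3 (LFC 2.03, 2.8e-04) and the fall in Vegfa (-0.53, 0.0060). With DEX alone 5 of the 13 rose and 0 fell, where 6.50% and 7.15% of all genes did. In FeSO4/DEX against NaCl/DEX 4 of the 13 rose (30.8%) and 0 fell, where 22.4% and 20.9% of all genes did. The median LFC of the 13 was 0.37 after FeSO4 without DEX and 0.01 with it. Egln1 and Egln3, prolyl hydroxylases of the same factor as Egln2, were on this list and on that of the further dioxygenases. Their own values are not given here, so the rise of Egln2 does not speak for them.

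The list for oxoglutarate, the co-substrate, held 19 genes, of enzymes and a carrier that make, use or move it and of the later succinate and fumarate steps (Sdha, Sdhb, Fh1). Of these 7 rose (36.8%) and 3 fell (15.8%) after FeSO4, against 27.2% and 27.3% of all genes, and Sdhb (LFC 0.47) and Fh1 (1.35) were among the 7. The transaminase gene Got1 rose most (LFC 2.29, edgeR adjusted p = 6.0e-06) and D2hgdh, which turns 2-hydroxyglutarate back to oxoglutarate, fell most (-0.61, 0.0028). Of 21 histone lysine methyltransferases, which add methyl groups to histone lysines, 5 rose (23.8%) and 8 fell (38.1%), against the same 27.2% and 27.3%. The largest rise was that of Dot1l (LFC 2.74, edgeR adjusted p = 3.0e-06) and the largest fall that of Setd1b (-1.05, 4.5e-05). The flavin-dependent demethylases need no iron, and of these Kdm1b fell (-1.77, 5.4e-07) and Kdm1a rose (0.49, 0.027).

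Of 17 writers and readers of DNA methylation and m6A, 7 rose (41.2%) and 2 fell (11.8%) after FeSO4, where 27.2% and 27.3% of all genes did, with the m6A writer subunit gene Zc3h13 at an LFC of 2.25 (edgeR adjusted p = 8.1e-05) and the catalytic writer gene Mettl3 at -0.78 (0.0029). Both erasers, Fto and Alkbh5, rose with the smaller LFCs given above. Of 15 collagen genes and partners of the collagen hydroxylases, 4 rose (26.7%) and 2 fell (13.3%), against 27.2% and 27.3% of all genes, with Lox, which cross-links hydroxylated collagen, at 3.11 (0.0024) and Col3a1 at -0.65 (0.023). In the carnitine list 1 of 6 rose (16.7%) and 0 fell, against those shares, the rise being that of the carnitine importer gene Slc22a5 (LFC 1.84, 5.9e-05), beside the fall of Bbox1. In FeSO4/DEX against FeSO4/PBS 0 genes of these lists passed the edgeR test.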

How the data were processed

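RNA from 12 livers was made into stranded mRNA libraries (TruSeq) and sequenced single-end. Per the labels and the study's methods, read quality was checked with FastQC, and STAR 2.7.10b aligned the reads to mm39 with GENCODE splice junctions and counted them by gene. What the authors deposited are raw counts for each Ensembl gene, not normalized, and the strand column used is not given in the sources used here. Samples were grouped by their treatment labels. Symbols, positions and exon lengths came from GENCODE vM39 on GRCm39. Promoters came from RefSeq (GRCm38.p6).

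In R 4.3.3 all 12 libraries entered 1 quasi-likelihood model (edgeR 4.0.16) of the 4 group means, following filterByExpr and TMM scaling. The 13857 genes that passed gave 5 contrasts, with Benjamini-Hochberg adjustment over all of them. SEs came from the LFC and its F statistic. The same steps were tested on simulated counts. DESeq2 1.42.0, other scalings and filters, a replicate block and leaving out each mouse were alternatives. Python 3.11.15 and matplotlib 3.10.9 drew the figures. The members and gene lists were chosen with earlier results of these data known, so no list was given a test of its own. Members were shown mouse by mouse when called beyond an LFC of 1 after FeSO4 alone, when called in a DEX comparison or in the difference of the DEX responses, or when highest per length in their class. Members whose spread or neighbour made a value uncertain were shown in the same way after their values were seen. In each list of related genes the called genes with the largest rise and fall were named, and Egln2, Kdm1a and Kdm1b were added for their roles. Nothing in the labels says how the mice of a group were housed or processed, so p-values measure the spread between these 12 livers. At 16335651 to 23827340 counts per library, counting error weighed most on the rarest members, such as Plod2, P4htm and Tet1. It also weighed on other members with few counts, such as Alkbh2, at 41, 34 and 64 raw counts in NaCl/DEX.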

Additional observations from a re-analysis of the deposited data

Results flagged for a closer look

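The response to DEX differed between NaCl and FeSO4 mice in 3 dioxygenase genes, by the edgeR test of the difference itself. All 3 differences were negative, where 3.20% of all genes passed with a negative difference and 2.99% with a positive one. The difference, FeSO4 mice minus NaCl mice, was -1.52 on the log2 scale for Phf8 (edgeR adjusted p = 5.2e-04), -0.91 for Alkbh1 (0.011) and -0.82 for Jmjd1c (0.031). That of Jmjd1c was fragile, failing in 8 of the 12 fits that left out 1 mouse (highest edgeR adjusted p 0.072), while Phf8 and Alkbh1 passed in every such fit. In NaCl mice the LFCs were 1.40, 0.84 and 0.74, with all 3 NaCl/DEX mice above all 3 NaCl/PBS mice in each gene, and in FeSO4 mice they were -0.11, -0.07 and -0.08, with overlapping groups. In mice given PBS in place of DEX, the genes stood at different levels after FeSO4, lower for Phf8 (LFC -0.48) and higher for Alkbh1 (2.16) and Jmjd1c (2.20).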

How the results depend on the processing

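Of 49 calls of single members, 30 passed under every alternative, 19 were lost under at least 1 and 0 reversed. Library size alone lost 8, libraries of the comparison alone and no filter 5 each, DESeq2 and its size factors 1 each, and at least 10 counts in every library 0. With library size alone, members after FeSO4 were 6 higher and 17 lower, all genes 2285 and 5829, all genes lower with DEX 1776, and class medians -0.29 (histone demethylases), 0.09 (nucleic acid demethylases) and -0.33 (hydroxylases). Beyond an LFC of 1, members were 4 higher and 2 lower after FeSO4, 3 and 2 after FeSO4 with DEX, 2 and 0 with DEX, and 1 lower in the difference. All genes were then 1730 and 2040, 1474 and 1362, 411 and 473, and 277 lower in the difference. In FeSO4/DEX against FeSO4/PBS, edgeR called 0 genes, with 900 at an unadjusted p under 0.05, DESeq2 5 higher and 4 lower, and edgeR without the filter 99 and 71. In the difference, DESeq2 called 1 member higher and 735 genes lower, and edgeR without the filter 2 members higher and 683 and 776 genes. The cause of these changes was not tested, apart from the fold limit, which can only remove calls. Leaving out 1 mouse, the members lower after FeSO4 ran from 7 to 11, members lower with DEX from 0 to 4 and all genes lower with DEX from 578 to 1259. All genes higher in FeSO4/DEX against FeSO4/PBS ran from 0 to 1, and in the difference members higher from 0 to 1 and all genes higher from 229 to 408. Where 2 mice remained in a group, all groups still shared 1 estimate of the spread.

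The groups share replicate numbers, but same-numbered mice deviated together little (correlations from -0.07 to 0.12), so the numbers were not read as pairs. In NaCl/DEX against NaCl/PBS the correlations were 0.12, 0.10 and 0.05, around the 0.1 set as needed for pairing. The other comparisons gave 0.01 at most. With the replicate block, members were 12 higher and 11 lower after FeSO4, 9 and 6 after FeSO4 with DEX, 4 and 2 with DEX, and 0 and 3 in the difference, and the calls of Kdm4c and Phf2 after FeSO4 with DEX were the 2 lost. All genes higher were then 3613, 2960, 846, 0 and 340, and lower 3655, 2732, 908, 0 and 389, in the order FeSO4, FeSO4 with DEX, DEX, DEX in FeSO4 mice and the difference. The class medians with the block were 0.03, 0.40 and 0.00.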
